A study of Mus musculus with 2 samples.

Results

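The Hsd17b genes encode dehydrogenases that were numbered together for their action on the 17β position of steroids, although most of them work on other substrates. The 8 genes described here are Hsd17b1, Hsd17b2, Hsd17b4, Hsd17b8, Hsd17b10, Hsd17b11, Hsd17b12 and Hsd17b13, listed by symbol with no threshold on a measured value, out of 18168 genes with reads in the series. Hsd17b8 stands in the annotation under its older symbol H2-Ke6, to which it was matched through RefSeq synonyms, and the other 7 have rows under their own names. Adrenal glands of male B6CASTF1/J hybrid mice aged 25 days, with no treatment or targeted allele named in the labels, were sequenced as long reads of total RNA in 2 libraries, numbered replicates 1 and 2 of 1 group. No condition was compared with another, so a test between the libraries compares 2 libraries.

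In this family Hsd17b1 reduces estrone to estradiol, and Hsd17b2 oxidises estradiol and testosterone to weaker hormones. Hsd17b4 is the D-bifunctional protein of peroxisomal β-oxidation, which hydrates and then oxidises the chains of very long, branched and bile acid precursors. In mitochondria Hsd17b8 forms, with Cbr4, the reductase of fatty acid synthesis, while Hsd17b10 oxidises an intermediate of isoleucine breakdown and is also a subunit of mitochondrial RNase P. Hsd17b12 is the 3-ketoacyl-CoA reductase of fatty acid elongation in the endoplasmic reticulum. Hsd17b11 and Hsd17b13 coat lipid droplets. The adrenal cortex stores cholesterol esters in such droplets and turns cholesterol into corticoid hormones, and the mouse cortex makes little androgen because it expresses little Cyp17a1.

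The tables held 752432 reads in annotated mouse genes in replicate 1 and 1210671 in replicate 2. Levels are reads per 1000000 of these (CPM), with no division by length since a long read is counted once whatever the length of its transcript, so 1 read is worth 1.33 CPM in replicate 1 and 0.826 CPM in replicate 2, and 0 reads allow up to 3.99 and 2.48 CPM (3 reads). One label gives both libraries the same animal and another gives them different animals, with 1 donor record for both, so the spread between them may be technical. All 6 adrenal cortex and all 5 chromaffin markers were detected in both libraries, with sums of 61499 and 9412 CPM in replicate 1 and 24952 and 7114 CPM in replicate 2, led by Cyp11a1 and Cyp21a1 and by Chgb and Chga. The libraries also held markers of other tissues. The 8 liver markers summed to 141 CPM in replicate 1, of which 137 CPM was Cyp2e1, and to 36298 CPM in replicate 2, where Alb alone had 18131 CPM and Apoa1 4142 CPM. In replicate 1, 3 of the 8 had reads, and Ttr, Fgb, Apoa1, Ahsg and Tat were at 0. The 8 skeletal muscle markers summed to 4076 CPM in replicate 1, led by Atp2a1 (1552 CPM) and Acta1 (1209 CPM), and to 1.65 CPM in replicate 2. The 6 adipocyte markers summed to 3618 and 2195 CPM and had the highest means of the libraries for Cidea and Fabp4. The 4 gonad markers had no read in either library, and the 3 kidney markers had 0 and 1.65 CPM. In bulk tissue, fewer cells of a type and less RNA per cell cannot be told apart.

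Promoters of 5 of the 8 members are held in the RefSeq promoter table (GRCm38.p6, the same assembly as mm10). Each has 300 bases across the RefSeq transcription start. In GENCODE, Hsd17b11-201 starts 123 bases upstream of that position, Hsd17b12-201 55, Hsd17b10-201 51 and Hsd17b13-202 22. The windows thus hold unlike lengths of transcribed sequence. The promoters of Hsd17b10 and Hsd17b12, which had reads in both libraries, are shown beside those of the lipid droplet pair Hsd17b11 and Hsd17b13, which had few or none in replicate 1. Capitals mark CG dinucleotides, and each sequence runs 5′ to 3′ on the strand of the gene.
Hsd17b10, chrX:152001646-152001945, plus strand: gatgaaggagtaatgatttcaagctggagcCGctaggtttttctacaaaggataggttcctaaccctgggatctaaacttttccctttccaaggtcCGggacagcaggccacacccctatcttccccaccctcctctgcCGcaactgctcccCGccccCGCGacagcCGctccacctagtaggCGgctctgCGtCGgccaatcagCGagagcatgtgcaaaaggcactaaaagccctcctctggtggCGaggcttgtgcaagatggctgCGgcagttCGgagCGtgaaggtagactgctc
Hsd17b12, chr2:94157860-94158159, minus strand: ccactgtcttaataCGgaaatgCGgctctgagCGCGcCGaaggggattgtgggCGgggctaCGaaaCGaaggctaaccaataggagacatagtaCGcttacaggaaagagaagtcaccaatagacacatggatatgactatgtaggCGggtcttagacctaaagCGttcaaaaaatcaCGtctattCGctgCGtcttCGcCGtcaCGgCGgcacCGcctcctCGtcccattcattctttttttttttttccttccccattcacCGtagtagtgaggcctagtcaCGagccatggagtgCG
Hsd17b11, chr5:104021747-104022046, minus strand: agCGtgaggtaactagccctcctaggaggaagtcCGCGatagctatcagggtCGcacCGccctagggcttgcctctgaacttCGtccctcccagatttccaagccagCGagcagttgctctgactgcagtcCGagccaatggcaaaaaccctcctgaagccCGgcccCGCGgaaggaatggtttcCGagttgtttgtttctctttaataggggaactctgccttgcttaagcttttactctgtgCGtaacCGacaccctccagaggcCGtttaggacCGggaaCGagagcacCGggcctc
Hsd17b13, chr5:103977339-103977638, minus strand: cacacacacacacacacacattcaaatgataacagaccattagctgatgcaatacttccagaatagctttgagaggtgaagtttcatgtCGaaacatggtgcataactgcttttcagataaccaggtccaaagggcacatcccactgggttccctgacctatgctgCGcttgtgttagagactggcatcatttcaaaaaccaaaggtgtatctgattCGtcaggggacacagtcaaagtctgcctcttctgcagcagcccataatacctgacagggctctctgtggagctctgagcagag

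Hsd17b13 differed from the other 4 promoters in its CG content. It held 3 CG dinucleotides, against 15 in Hsd17b10, 16 in H2-Ke6, 18 in Hsd17b11 and 23 in Hsd17b12, and the median over all 32851 promoters of the table was 7.00 (quartiles 3.00 and 20.0). The letters GGGCGG, which contain a CG and were searched on both strands like the motifs that follow, stood once each in Hsd17b10, Hsd17b11 and Hsd17b12, and in 35.7% of all promoters. CCAAT stood in 4 of the 5 promoters, all but Hsd17b13, and in 37.4% of all. TATAAA was in none of the 5, against 13.6% of all promoters, and CAAGGTCA, letters bound by steroidogenic factor 1, was in none of the 5, against 1.56% of all. These matches are a description of the letters in this window.

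The 8 genes together had 580 reads in replicate 1 and 1479 in replicate 2, which is 771 and 1222 CPM (996 ± 319, SD, n = 2). Leaving out the members with 0 reads in replicate 1, a choice made after seeing the data, kept 6 members. These totalled 771 CPM for replicate 1 and 882 CPM for replicate 2 (826 ± 78.7, SD, n = 2). Hsd17b4 held the largest share of the family's reads, 47.8% (95% Clopper-Pearson interval 43.6 to 51.9) in replicate 1 and 36.7% (34.3 to 39.2) in replicate 2. Hsd17b2, with no read in replicate 1, took 19.3% (17.4 to 21.4) in replicate 2 and was the second member there. All intervals, errors of ratios and limits of detection describe counting alone, since copies made by PCR are not independent molecules.

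**Figure D1:**
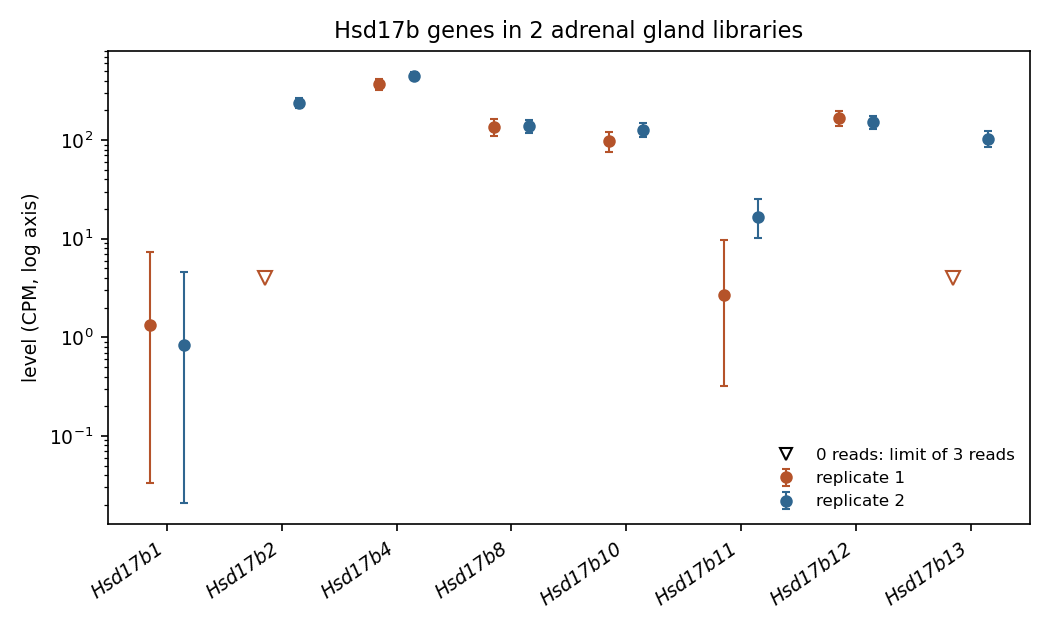
Level of each Hsd17b gene in CPM on a log axis, replicate 1 on the left and replicate 2 on the right of each gene, with 95% Clopper-Pearson intervals. Open triangles are the limit of 3 reads (3.99 CPM) for Hsd17b2 and Hsd17b13 in replicate 1, where replicate 2 had 236 and 103 CPM.

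Of 7 members tested between the libraries, 4 were lower in replicate 1 (Hsd17b2, Hsd17b4, Hsd17b11 and Hsd17b13) and 0 were higher (0 also at an unadjusted p under 0.05), by a two-sided Fisher's exact test adjusted by Benjamini-Hochberg over all genes, at 0.05. Over all 11382 genes tested, 11.5% were lower in replicate 1, 25.3% were higher and 36.8% differed in either direction. The test takes counting error alone. With an assumed coefficient of variation of 0.2 between libraries, 2 members were lower (Hsd17b2 and Hsd17b13). The median log2 ratio of replicate 1 to replicate 2 over all tested genes was 0.34, and TMM or DESeq2 scaling sets no change at 0.35 or 0.40. Relative to those positions 5 members were lower, Hsd17b10 among them, under either scaling.

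Hsd17b1 (chromosome 11, 101078411 to 101080527, plus strand, mm10) was at the limit of detection. It had 1 read in replicate 1 (1.33 CPM, interval 0.0336 to 7.40) and 1 read in replicate 2 (0.826 CPM, interval 0.0209 to 4.60), both on the annotated transcript of 6 exons. Both intervals include the value of the other library, and the reads were too few to test. Hsd17b1 ranked 13003 of 15242 genes in replicate 1 and 14399 of 16852 in replicate 2.

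Hsd17b2 (chromosome 8, 117701904 to 117759027, plus strand) had 0 reads in replicate 1, which allows up to 3.99 CPM, and 286 reads in replicate 2 (236 CPM, interval 210 to 265). It was at least 59.2-fold lower in replicate 1, against the limit of 3 reads (adjusted p = 6.71e-59, Fisher's exact test). The replicate 2 library, in which the gene was found, is the one with 36298 CPM of liver markers, and the part of liver RNA in this result was not tested. Within replicate 2 there was 1 read of Hsd17b1 for 286 of Hsd17b2, a ratio of 0.00350 (8.82e-05 to 0.0196).

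The annotated transcript of 5 exons held 257 of the 286 Hsd17b2 reads (89.9%, 85.8 to 93.1). A chain of the class NNC (at least 1 splice site not in the annotation), also of 5 exons, held another 20 reads and began at another first exon. That exon ran over 211 bases from 117700987 to 117701197, starting 5 bases after the RefSeq start of the gene and 917 bases before the start of the GENCODE first exon, from which a gap of 706 bases separated it. Over all models of replicate 2, 21 reads had the upstream first exon and 259 the annotated one spliced, so the upstream share was 7.50% (4.70 to 11.2). In replicate 1 neither could be seen. The other annotated transcripts, Hsd17b2-202 and Hsd17b2-203, had no read.

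The other listed genes of sex steroid metabolism were mostly low. Srd5a2, a steroid 5α-reductase, led the list with 661 CPM in replicate 1 and 457 CPM in replicate 2 and was higher in replicate 1 (log2 ratio 0.53 ± 0.09, SE, adjusted p = 3.33e-08, Fisher's exact test). Cyb5a, the cytochrome b5 that assists Cyp17a1, had 183 and 366 CPM and was lower in replicate 1 (log2 ratio -0.99 ± 0.14, adjusted p = 1.53e-12, Fisher's exact test). Akr1c6, a hydroxysteroid dehydrogenase of the aldo-keto reductase family, had 0 reads in replicate 1, against 325 CPM in replicate 2, and was lower in replicate 1 (adjusted p = 2.81e-81 by Fisher's exact test). Its reads were in the library with the liver markers, whose part was not tested here either. Cyp19a1, the aromatase, and Esr2, an estrogen receptor, had 0 reads in both libraries. Of 7 genes tested in this list 1 was higher and 2 lower in replicate 1, and under TMM or DESeq2 scaling 0 were higher, Srd5a2 losing its call, and 2 lower. The median log2 ratio of the list was 0.08, beside 0.34 for all tested genes.

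Hsd17b4 (chromosome 18, 50128201 to 50196269, plus strand) was the most abundant member in both libraries. It had 277 reads in replicate 1 (368 CPM, 326 to 414) and 543 in replicate 2 (449 CPM, 412 to 488), a mean of 408 ± 56.8 CPM (SD, n = 2), and ranked 396 and 304 among the detected genes. The intervals of the libraries overlap slightly. The level was lower in replicate 1 (log2 ratio -0.28 ± 0.11, adjusted p = 0.0244, Fisher's exact test), and with TMM scaling the ratio was -0.63. Thinned to equal depth the ratio was -0.27 and the call was lost (adjusted p = 0.0723), and with the assumed coefficient of variation it was lost too (adjusted p = 0.786).

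The annotated transcript Hsd17b4-201, with 24 exons and 2684 bases, held 89.2% of the gene's reads in replicate 1 (247 of 277, 84.9 to 92.6) and 89.0% in replicate 2 (483 of 543, 86.0 to 91.5). Over 5749 genes the median share of the leading chain was 76.6% in replicate 1 and 70.9% in replicate 2. A chain of 23 exons that is not annotated recurred with 9 reads in replicate 1 and 15 in replicate 2. It leaves out exon 5, of 22 bases (50142470 to 50142491), and its next exon starts at 50142572 in place of 50142593, 21 bases earlier, so the transcript is 1 base shorter. Of all Hsd17b4 reads with either structure, 10 in replicate 1 (3.77%, 1.82 to 6.83) and 17 in replicate 2 (3.34%, 1.96 to 5.29) carried the longer exon, against 255 and 492 with exon 5. The shares lie within each other's interval. A second NNC chain, in which the donor site after exon 13 lies 2 bases later, had 1 read in each library.

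Shorter Hsd17b4 models that began inside the gene and kept the annotated end (incomplete splice matches, ISM) numbered 9 in replicate 1 (14 reads, with 11 to 22 exons) and 14 among multi-exon models in replicate 2 (27 reads, with 5 to 23 exons). A single-exon model of the last exon had 0 reads in replicate 1 and 9 in replicate 2. The 17-exon ISM chain had 1 read in replicate 1 and 6 in replicate 2. The 3 other annotated transcripts, Hsd17b4-202, Hsd17b4-203 and Hsd17b4-204, had no read. In both libraries Hsd17b4 was thus read mainly as its full 24-exon transcript, with a coding part of 2205 bases.

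The peroxisomal β-oxidation genes listed with Hsd17b4 were lower in replicate 1 more often than not. Of 17 tested, 11 were lower and 2 higher, with a median log2 ratio of -0.78. Under TMM or DESeq2 scaling 12 were lower and 2 higher. Over all genes tested without such scaling, 11.5% were lower and 25.3% higher, with a median log2 ratio of 0.34. Scp2, the sterol carrier protein with a peroxisomal thiolase form, had 455 CPM in replicate 1 and 1826 CPM in replicate 2. Slc27a2, which activates very long chain fatty acids, had 45.2 and 938 CPM (log2 ratio -4.36 ± 0.25), and Acaa1b, a thiolase, 42.5 and 855 CPM (log2 ratio -4.31 ± 0.26). Each of these 3 was lower in replicate 1, with an adjusted p no higher than 1.15e-167 by Fisher's exact test. The whole list of 17 genes totalled 2072 CPM for replicate 1 and 6169 CPM for replicate 2, while the liver markers totalled 141 and 36298 CPM. The part of liver RNA in this difference was not tested. Hsd17b4 itself, at 368 CPM in replicate 1 and 449 CPM in replicate 2, was above Acaa1b and Slc27a2 in replicate 1 and below them in replicate 2.

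Hsd17b8 (H2-Ke6, chromosome 17, 34026033 to 34028060, minus strand) had 102 reads in replicate 1 (136 CPM, 111 to 165) and 167 in replicate 2 (138 CPM, 118 to 161). The mean was 137 ± 1.68 CPM (SD, n = 2), with overlapping intervals and no difference called (log2 ratio -0.02 ± 0.18, adjusted p = 1.00, Fisher's exact test). Relative to TMM factors the ratio was -0.37 (adjusted p = 0.112, Fisher's exact test). Of the members with at least 20 reads in each library it had the least uniform transcripts. The annotated H2-Ke6-201, of 9 exons, held 52.0% of reads in replicate 1 (53 of 102, 41.8 to 62.0) and 61.1% in replicate 2 (102 of 167, 53.2 to 68.5), and no difference in share was called between libraries (adjusted p = 0.420, Fisher's exact test). Gm20427, an annotated record on the same strand, overlaps H2-Ke6 (6 reads in replicate 1 and 16 in replicate 2), so the level of H2-Ke6 is uncertain by reads that could be given to either.

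The second chain of H2-Ke6 was a 2-exon model of 555 bases at the 3′ end of the gene, with 24 reads in replicate 1 (23.5%, 15.7 to 33.0) and 33 in replicate 2 (19.8%, 14.0 to 26.6). The model ran from 34026758 to 34026034 on the minus strand, and its first exon spanned an intron of 192 bases of H2-Ke6-201. Whether each read covered that intron was not tested. ISM chains without the first intron or the first 2 introns of H2-Ke6-201 had 4 and 7 reads in replicate 1 and 9 and 3 reads in replicate 2. The outermost model of the chain without the first 2 introns began at 34028853, upstream of the annotated gene. Whether the reads covered these introns, and where each of them began, was not tested. Of 12 annotated transcripts of H2-Ke6, H2-Ke6-212 had 3 reads in replicate 1 and 1 in replicate 2, H2-Ke6-203 had 1 and 1, and H2-Ke6-207 had 1 and 2. H2-Ke6-205 and H2-Ke6-209 had 1 read each in replicate 1, and 6 others had none in either library.

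**Figure D2:**
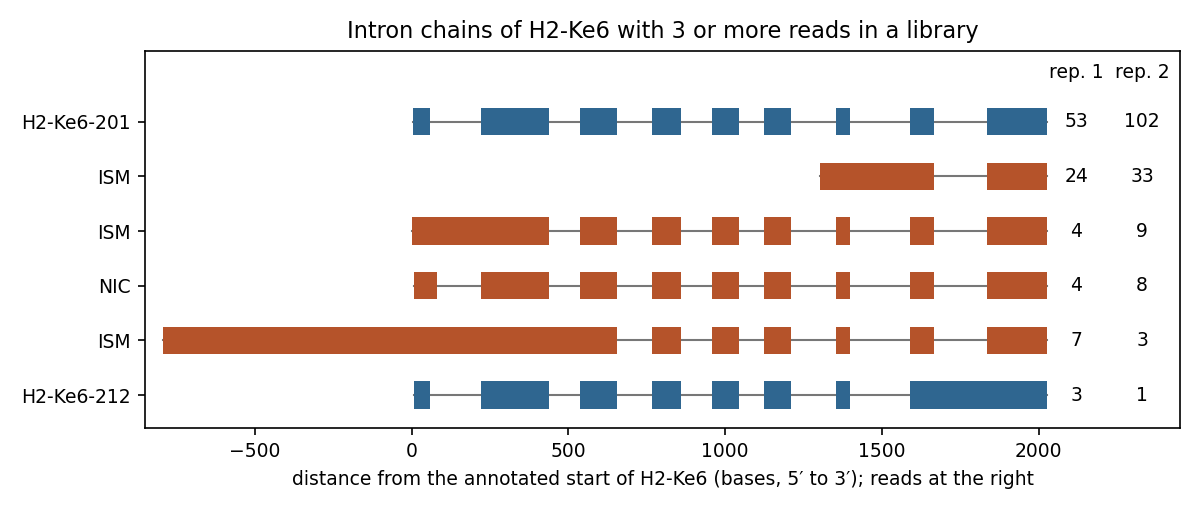
Intron chains of H2-Ke6 with 3 or more reads in a library, drawn from 5′ (left) to 3′ (right) by distance in bases from the annotated start, boxes for exons, blue for annotated and red for not annotated chains. The outer ends of a chain are the furthest ends among all its models, so single models can be shorter. The numbers at the right are reads, from 53 in replicate 1 and 102 in replicate 2 for H2-Ke6-201 to 3 and 1 for H2-Ke6-212.

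One H2-Ke6 chain of the class NIC (annotated splice sites in a combination that is not annotated) used a first exon longer by 21 bases, a multiple of 3, at a donor site known from H2-Ke6-202. Reads with the longer first exon numbered 4 in replicate 1, against 57 with the usual one (6.56% of both, 1.82 to 15.9), and 10 in replicate 2, against 106 (8.62%, 4.21 to 15.3). The added bases lie in the coding part and are given here in capitals, in the GENCODE M21 transcripts across the junction of exons 1 and 2 (chr17:34027826-34028016, minus strand).
H2-Ke6-201: tggccctggtcacaggtgcgggtagcggca
H2-Ke6-202: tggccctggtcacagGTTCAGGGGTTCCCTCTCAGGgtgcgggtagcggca

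The genes of mitochondrial fatty acid synthesis were close in level between the libraries. The 7 listed genes totalled 541 CPM for replicate 1 and 539 CPM for replicate 2, and of 6 tested 0 were higher and 0 lower by Fisher's exact test (also 0 at an unadjusted p under 0.05), with a median log2 ratio of 0.00. Under TMM or DESeq2 scaling 2 were lower, Ndufab1 and Mcat. Ndufab1, the acyl carrier protein, had 222 CPM in replicate 1 and 240 CPM in replicate 2. Mecr, the enoyl reductase, had 110 and 102 CPM, and Mcat, the malonyl transferase, 91.7 and 110 CPM. Hsd17b8, at 136 and 138 CPM, thus lay between Ndufab1 and Mecr in both libraries. Cbr4, with which it forms the reductase (named outside the rule for named genes), had 30.6 CPM in replicate 1 and 25.6 CPM in replicate 2.

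Hsd17b10 (chromosome X, 152001845 to 152004442, plus strand) had 73 reads in replicate 1 (97.0 CPM, 76.0 to 122) and 153 in replicate 2 (126 CPM, 107 to 148), a mean of 112 ± 20.8 CPM (SD, n = 2). The intervals overlap and no difference was called (log2 ratio -0.38 ± 0.20, adjusted p = 0.140, Fisher's exact test). With TMM factors it was lower in replicate 1 (log2 ratio -0.72, adjusted p = 0.00160, Fisher's exact test), and also with DESeq2 size factors (-0.78). The ratio of Hsd17b10 to Hsd17b8 reads was 0.716 (0.523 to 0.976) in replicate 1 and 0.916 (0.731 to 1.15) in replicate 2. Counting annotated transcripts alone, Hsd17b10 had more reads than Hsd17b8, with ratios of 1.20 (0.840 to 1.72) and 1.37 (1.06 to 1.77), so the order of these mitochondrial enzymes depends on the incomplete H2-Ke6 models.

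Hsd17b10-201, of 6 exons, held 95.9% of the gene's reads in replicate 1 (70 of 73, 88.5 to 99.1) and 92.2% in replicate 2 (141 of 153, 86.7 to 95.9), with no difference called (adjusted p = 0.684, Fisher's exact test). Hsd17b10-204 had 1 and 4 reads, and Hsd17b10-203 had 1 and 0. A single-exon model of the class genomic (no annotated splice structure), at the 3′ end from 152004203 to 152004442, was without reads in replicate 1 and had 5 in replicate 2. The annotated Hsd17b10-202, whose exon 4 is longer by 30 coding bases, had no read in either library. Both annotated forms of this junction are shown because the data separate them (GENCODE M21, chrX:152003511-152003667, plus strand, the added bases in capitals).
Hsd17b10-201, 70 reads in replicate 1 and 141 in replicate 2: cagcgggttatcaatgtgaatcttataggc
Hsd17b10-202, 0 reads in replicate 1 and 0 in replicate 2: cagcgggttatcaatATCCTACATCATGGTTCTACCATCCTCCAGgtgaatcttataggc

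The partners of Hsd17b10 were present in both libraries. In mitochondrial RNase P it works with the methyltransferase Trmt10c, which had 50.5 CPM in replicate 1 and 42.1 CPM in replicate 2, and with the nuclease Prorp, listed as 1110008L16Rik, which had 21.3 and 11.6 CPM. Elac2, which cuts the other end of the tRNAs, had 162 CPM in replicate 1 and 72.7 CPM in replicate 2 and was higher in replicate 1 (log2 ratio 1.16 ± 0.20, adjusted p = 8.66e-08, Fisher's exact test). In isoleucine breakdown Echs1, the hydratase that acts just before Hsd17b10, had 647 CPM in replicate 1 and 631 CPM in replicate 2. Acat1, the thiolase that acts just after it, had 417 and 463 CPM, and Dld, a subunit of the branched-chain dehydrogenase complex, 595 and 433 CPM. Of 8 genes tested in that list 4 were higher and 1 lower in replicate 1, and under TMM or DESeq2 scaling the split turned to 1 higher and 4 lower.

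Hsd17b12 (chromosome 2, 94032689 to 94157964, minus strand) had 125 reads in replicate 1 (166 CPM, 138 to 198) and 184 in replicate 2 (152 CPM, 131 to 176). The mean was 159 CPM. It was the second member in replicate 1 and the third in replicate 2. The intervals overlap and no difference was called (log2 ratio 0.13 ± 0.17, adjusted p = 0.601, Fisher's exact test), and with TMM factors the ratio was -0.22 and with DESeq2 size factors -0.27. The ratio of Hsd17b4 to Hsd17b12 reads was 2.22 (1.79 to 2.76) in replicate 1 and 2.95 (2.49 to 3.51) in replicate 2, so Hsd17b4 exceeded it in both.

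Hsd17b12-201, of 11 exons, held 92.0% of the gene's reads in replicate 1 (115 of 125, 85.8 to 96.1) and 87.5% in replicate 2 (161 of 184, 81.8 to 91.9), with no difference called (adjusted p = 0.548, Fisher's exact test). Single-exon genomic models near the 3′ end, between 94032702 and 94033522, had 4 reads in replicate 1, against 13 in replicate 2. The 4 other annotated transcripts, numbered Hsd17b12-202 through Hsd17b12-205, went without a read in either library.

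The elongation genes listed with Hsd17b12 had sums of 1673 CPM in replicate 1 and 1716 CPM in replicate 2. Elovl5, which extends polyunsaturated chains, had 489 and 514 CPM. Tecr, the reductase of the last step of each round, had 443 and 450 CPM. Hacd3, the dehydratase that follows Hsd17b12, had 435 CPM in replicate 1 and 270 CPM in replicate 2 and was higher in replicate 1 (log2 ratio 0.69 ± 0.11, adjusted p = 1.50e-08, Fisher's exact test). Of 10 genes tested in the list, 2 were higher and 2 lower, with a median log2 ratio of -0.05, and under TMM or DESeq2 scaling 1 was higher and 4 lower. Hsd17b12, at 166 and 152 CPM, was below Elovl5, Tecr and Hacd3 in both libraries.

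Hsd17b11 and Hsd17b13 are neighbours on the minus strand of chromosome 5, at 103989762 to 104021919 and 103955440 to 103977410, with 12351 bases between them. Hsd17b13 had 0 reads in replicate 1, which allows 3.99 CPM, and 125 reads in replicate 2 (103 CPM, 85.9 to 123). It was at least 25.9-fold lower in replicate 1 against the limit of 3 reads (adjusted p = 1.98e-25, Fisher's exact test), beside 141 and 36298 CPM of liver markers. The part of liver RNA in this result was not tested. Leaving genes over 10-fold different between the libraries out of the total, an alternative chosen after seeing the data, gave 0 CPM in replicate 1 and 134 CPM in replicate 2 for Hsd17b13, and 0 and 306 CPM for Hsd17b2.

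The reads of Hsd17b13 in replicate 2 separated the annotated ends of the gene. Hsd17b13-202 held 123 of 125 reads (98.4%, 94.3 to 99.8), while Hsd17b13-201, which splices exon 6 to a last exon further downstream, and Hsd17b13-203, which has 6 exons, had none. The last exons give the protein different ends, with 88 coding bases in Hsd17b13-202 and 100 in Hsd17b13-201. Both junctions are shown with the bases of exon 7 in capitals (GENCODE M21, minus strand, within chr5:103963834-103965789 for Hsd17b13-202 and chr5:103956257-103965789 for Hsd17b13-201).
Hsd17b13-202, 0 reads in replicate 1 and 123 in replicate 2: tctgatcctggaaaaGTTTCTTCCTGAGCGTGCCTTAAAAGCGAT
Hsd17b13-201, 0 reads in replicate 1 and 0 in replicate 2: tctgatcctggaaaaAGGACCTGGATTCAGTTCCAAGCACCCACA

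Hsd17b11 had 2 reads in replicate 1 (2.66 CPM, 0.322 to 9.60) and 20 in replicate 2 (16.5 CPM, 10.1 to 25.5), and was lower in replicate 1 (log2 ratio -2.35 ± 0.97, adjusted p = 0.0126, Fisher's exact test). The transcripts behind the reads were of different kinds. In replicate 1 there was 1 read of Hsd17b11-201 and 1 of an NNC model of 8 exons. In replicate 2, 19 reads lay in a single-exon genomic model of 111 bases at the 3′ end of the gene (103989762 to 103989872) and 1 in another of 723 bases, and no read had a splice junction. Without genomic models the gene therefore had 2 reads in replicate 1 and 0 in replicate 2, too few to test. With the assumed coefficient of variation the call was lost (adjusted p = 0.0871). The other annotated transcript, Hsd17b11-202, had no read.

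The 21 other lipid droplet genes listed were all detected in both libraries and totalled 6062 CPM for replicate 1 and 5263 CPM for replicate 2. Dgat2, which makes triglyceride, had 1207 and 1406 CPM and was lower in replicate 1 (log2 ratio -0.22 ± 0.06, adjusted p = 9.39e-04, Fisher's exact test). Cidea, a droplet fusion protein, had 776 and 643 CPM, and Pnpla2, the triglyceride lipase, 716 and 517 CPM (log2 ratio 0.47 ± 0.08). Both were higher in replicate 1, with adjusted p = 0.00283 for Cidea and 3.57e-07 for Pnpla2 by Fisher's exact test. With TMM or DESeq2 scaling neither was called, and the log2 ratio of Cidea was then -0.08 or -0.13. Of 21 genes tested 9 were higher and 4 lower, with a median log2 ratio of 0.26. TMM scaling gave 5 higher and 6 lower, and DESeq2 scaling 4 and 7. Hsd17b11, at 2.66 CPM in replicate 1 and 16.5 CPM in replicate 2, was above 1 of the 21 listed genes in each library. Hsd17b13 was above none in replicate 1, with 0 reads, and above 8 of 21 in replicate 2, with 103 CPM. Cidea is also on the adipocyte list, with a total of 3618 CPM for replicate 1 and 2195 CPM for replicate 2, and the part of fat cells was not tested.

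**Figure D3:**
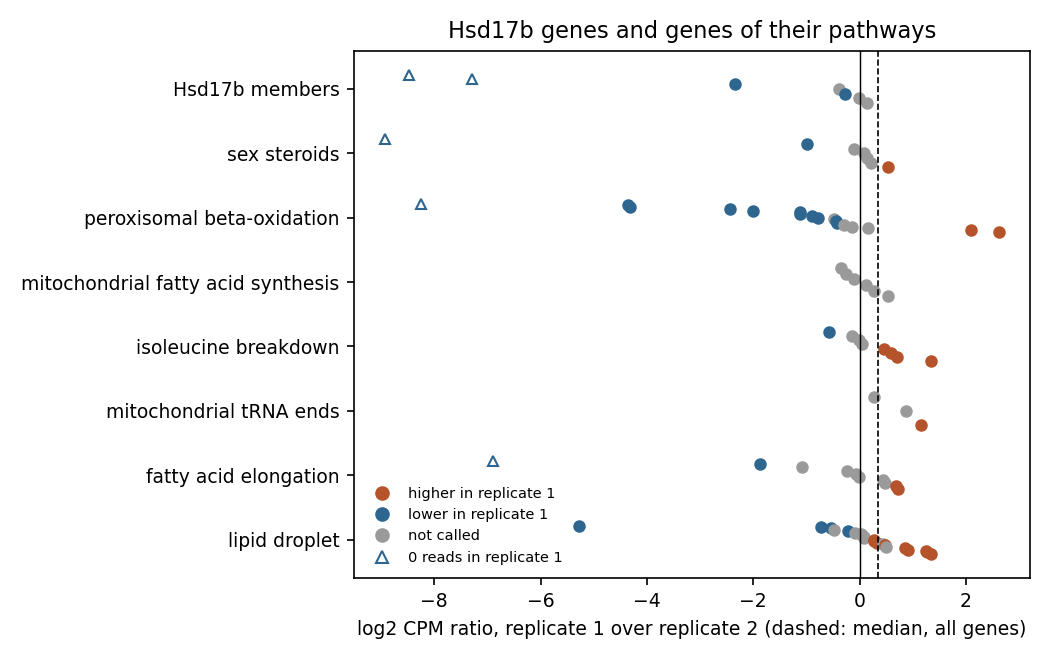
Log2 ratio of CPM, replicate 1 over replicate 2, for every tested Hsd17b gene (top) and every tested gene of the pathway lists. Filled points are coloured by the call of Fisher's exact test, open triangles have 0 reads in replicate 1 (their position depends on the prior count), and the dashed line is the median of all tested genes, 0.34.

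Across the family most reads fell on annotated transcripts. Known models held 85.5% of member reads in replicate 1 and 86.3% in replicate 2, against 77.0% and 75.6% over all genes. ISM models held 9.83% and 6.49%, NIC 1.38% and 0.947%, NNC 2.59% and 3.72%, and genomic models 0.690% and 2.57%. Of 34 annotated transcripts 15 had reads in either library, 13 in replicate 1, 11 in replicate 2 and 9 in both. The members had 84 multi-exon chains, of which 25 were in both libraries, 19 in replicate 1 alone and 40 in replicate 2 alone. Of 34 NIC or NNC chains 3 recurred in both libraries, the 2 of Hsd17b4 and the 1 of H2-Ke6 described above, and 27 rested on a single read.

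**Figure D4:**
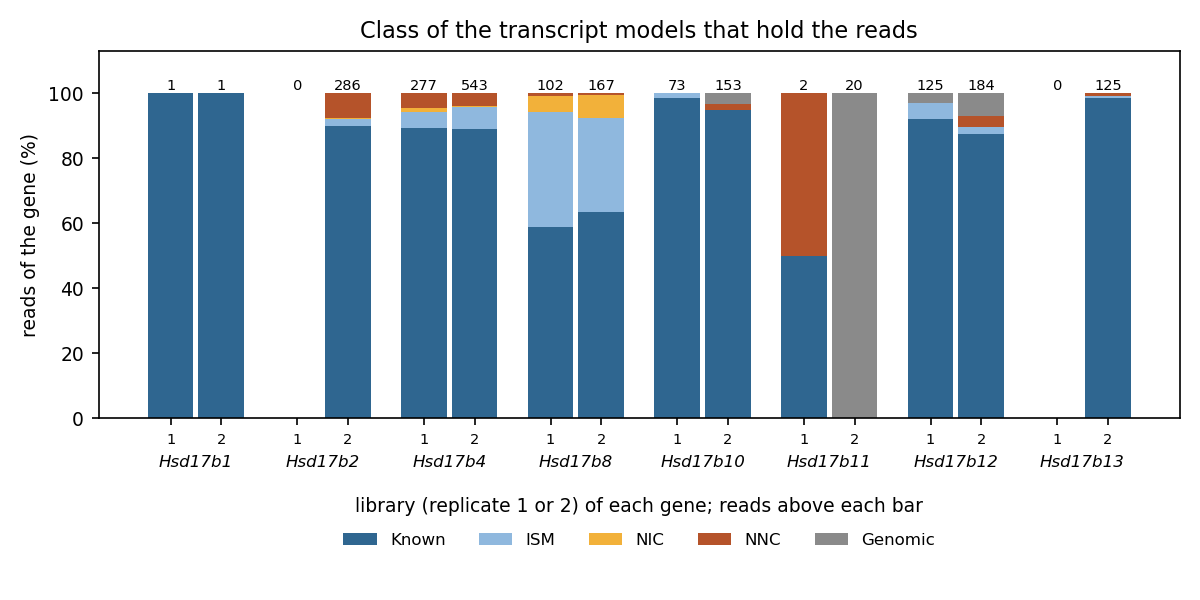
Share of each gene's reads (percent) in known, ISM, NIC, NNC and genomic transcript models, replicate 1 left and replicate 2 right, with the reads of the gene above each bar and no bar at 0 reads. H2-Ke6 (Hsd17b8) has 35.3% of reads in ISM models in replicate 1 and 28.7% in replicate 2, and all 20 reads of Hsd17b11 in replicate 2 are genomic.

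The share of the leading chain was tested between libraries for the 4 members with enough reads, Hsd17b4, Hsd17b8, Hsd17b10 and Hsd17b12. None was called different by Fisher's exact test, either after adjustment over 4676 genes or at an unadjusted p under 0.05, while 14.9% of all genes tested were, 12.1% with a higher share in replicate 1 and 2.78% with a lower one. The differences were 0.219 percentage points for Hsd17b4, -9.12 for Hsd17b8, 3.73 for Hsd17b10 and 4.50 for Hsd17b12 (replicate 1 minus replicate 2). With 102 and 167 reads the intervals of Hsd17b8 span over 15 percentage points each. Whether a shift of the observed size could be detected at this depth was not tested.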

How the data were processed

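Long-read RNA sequencing of adrenal gland tissue gave 2 libraries of 1 group, replicates 1 and 2 by the labels. The authors deposited, library by library, raw read counts for every transcript model and the models' exons. Assembly mm10 and GENCODE M21 are named in the file headers, where attribute names follow TALON. Aligner and tool versions: not given in the sources used here.

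Counts of a gene's models were summed, and CPM was computed over annotated mouse gene reads, leaving out spike-ins (1.39% of reads in replicate 1, 1.33% in replicate 2) and loci outside annotated genes (3.84% and 4.85%). Models of the libraries were paired when strand and all introns were the same. Single-exon models of a gene were pooled into the same chain, whatever their position or length. Genes whose reads reached 10 over the pair of libraries were compared by Fisher's exact test (SciPy 1.17.1) with Benjamini-Hochberg adjustment over all of them, with a prior of 0.5 reads in log2 ratios. Leading chain shares were compared likewise where the gene had 20 or more reads per library and a second chain had 5. Both tests were checked on simulated data. Intervals are 95% Clopper-Pearson, and 0 reads are given a limit of 3 reads. TMM (edgeR 4.0.16) and DESeq2 1.42.0 scaling, read minimums, model classes, thinning, omission of either library and a fixed coefficient of variation (0.2) were alternatives.

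The members and gene lists were chosen with earlier results of these data known. Named genes are all members, the 3 highest genes of each pathway list with any at 0 in both libraries, and the 2 highest of marker lists, with every chain of a member with at least 5 reads. Of 124 listed symbols, 121 had a record of that name, 2 had one through a RefSeq synonym, and Sts is not analysed here. Sequences come from RefSeq and GENCODE tables.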

Additional observations from a re-analysis of the deposited data

Results flagged for a closer look

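Reads outside the gene totals of the members lay over some of them. On the strand opposite to Hsd17b4 there were 5 antisense reads in replicate 1 and 4 in replicate 2, all in single-exon models. Opposite Hsd17b12 4 antisense reads were counted in replicate 1 and 5 in replicate 2, with 1 in each library from a multi-exon model. Opposite Hsd17b2 there were 5 antisense reads in replicate 2. Gm20427, an annotated record that overlaps H2-Ke6 on the same strand, had 6 reads in replicate 1 and 16 in replicate 2. Each of these counts was above the limit of 3 reads, and the tables have no control sample to set them against.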

How the results depend on the processing

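No paired analysis was possible because the labels give 1 group. No member changed direction with a call. Of the listed genes tested, Chga did: called higher in replicate 1 at a log2 ratio of 0.14, it was called lower with TMM (-0.21) and DESeq2 (-0.26). The number of genes higher in replicate 1, 2876, was 1563 with TMM, 1387 with DESeq2 size factors, 1545 with genes over 10-fold different left out of the total (chosen after seeing the data) and 743 with the assumed coefficient of variation of 0.2. The number of genes lower, 1307, was 2015, 2193, 2037 and 780 under the same settings. The members lower, 4, were 2 with the assumed coefficient of variation, which requires a larger difference. Genes with a different leading chain share, 695, were 89 of 1607 tested with known models alone. Among the single members, Hsd17b10 gained a call with TMM, DESeq2 and the 10-fold setting, Hsd17b4 lost it when thinned, and Hsd17b4 and Hsd17b11 lost it with the assumed coefficient of variation. The causes were not tested. The summed level of the family was 771 CPM without replicate 2 and 1222 CPM without replicate 1. Depth limits Hsd17b1 and Hsd17b11 most, with 1 to 20 reads.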

Other observations

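Of other genes with the family's name, Hsd17b7 is not described here. The others with reads were Hsd17b6 and Hsd17b14, both outside the members and named after their values were seen. Hsd17b6 had 0 reads in replicate 1 and 40 in replicate 2 (33.0 CPM, adjusted p = 5.71e-08, Fisher's exact test). The Hsd17b6 reads were in the library with the liver markers, and the part of liver RNA was not tested. Hsd17b14 had 2 reads in replicate 1 and 1 in replicate 2.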
